A study of Mus musculus with 18 samples.

Results

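The comparison set PHD3 knockout macrophages labelled oxygen 1 directly against PHD3 knockout macrophages labelled starved, with no control sample on either side. Its samples were chosen by their titles, and they are 6 of the 18 samples of the series, 3 at oxygen 1 and 3 starved. All 6 came from male C57BL/6J mice of genotype PHD3-/-, aged 8 weeks, whose femoral marrow was turned into macrophages in 7 days of culture with M-CSF, their growth factor. The oxygen 1 samples carried the feeding label control, and the starved samples the oxygen label 20, so the groups differ in both labels at once. Used beside them were 3 knockout control samples (oxygen 20, control feeding) and 9 wild-type samples of the same strain, sex and age under the same 3 conditions. The labels give no unit of oxygen, no duration of either stress, no account of how the knockout allele was made, and do not say if cells or mice were starved. According to the design text there were 3 mice each, but a shared sample number is not said to mean a shared mouse.

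PHD3, encoded by Egln3, is one of the prolyl hydroxylases that spend oxygen on marking the alpha chains of HIF, the hypoxia-inducible factor, so that the von Hippel-Lindau protein has them destroyed. When oxygen is scarce these subunits persist, pair with Arnt and raise genes for glucose uptake, glycolysis, vessel growth and collagen modification, among them the genes of the hydroxylases PHD2 and PHD3 themselves. Sterol synthesis is run by another sensor: the SREBP factors are released when membrane sterols are low and raise the genes of cholesterol and unsaturated fatty acid synthesis. Loss of nutrients is read by still other routes, such as the ATF4 amino acid response, FOXO factors and the lysosome. Setting both stresses against each other in one genotype shows which genes separate them.

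Promoters of genes at both ends of the comparison are printed first, to show the motif letters that the shares below count. Each is 300 bases around the first listed start of the gene, from the RefSeq table of build GRCm38.p6, read 5′ to 3′ on the gene's own strand. Capitals mark ACGTG, the core of the HIF response element, or its reverse complement, in 5 genes that were higher at oxygen 1. In Nsdhl and Hsd17b7, enzymes of sterol synthesis that were lower at oxygen 1, capitals mark CCAAT or its reverse complement, the letters bound by NF-Y, a known partner of SREBP. In Bnip3 the matches on both strands overlap in a palindrome. Each promoter is marked for a single motif, picked by the direction of its gene, and letters of the other motif are left unmarked. CCAAT also occurs in the printed promoters of Ankrd37, Bnip3 and Slc2a1, and ACGTG in that of Hsd17b7, so the motifs do not separate the printed genes.
Ankrd37 (chr8:45999801-46000100, minus strand): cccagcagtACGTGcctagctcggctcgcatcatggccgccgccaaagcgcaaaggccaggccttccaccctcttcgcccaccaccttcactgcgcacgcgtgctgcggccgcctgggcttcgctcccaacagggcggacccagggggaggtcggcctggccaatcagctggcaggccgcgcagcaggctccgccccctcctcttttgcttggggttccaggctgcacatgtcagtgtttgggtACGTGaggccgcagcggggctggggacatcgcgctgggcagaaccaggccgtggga
Bnip3 (chr7:138909457-138909756, minus strand): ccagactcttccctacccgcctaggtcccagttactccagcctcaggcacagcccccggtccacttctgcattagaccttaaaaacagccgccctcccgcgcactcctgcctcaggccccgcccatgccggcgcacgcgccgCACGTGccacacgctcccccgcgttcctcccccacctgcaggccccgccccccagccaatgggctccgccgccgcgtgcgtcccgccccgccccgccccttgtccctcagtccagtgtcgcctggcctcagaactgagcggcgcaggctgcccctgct
P4ha2 (chr11:54100674-54100973, plus strand): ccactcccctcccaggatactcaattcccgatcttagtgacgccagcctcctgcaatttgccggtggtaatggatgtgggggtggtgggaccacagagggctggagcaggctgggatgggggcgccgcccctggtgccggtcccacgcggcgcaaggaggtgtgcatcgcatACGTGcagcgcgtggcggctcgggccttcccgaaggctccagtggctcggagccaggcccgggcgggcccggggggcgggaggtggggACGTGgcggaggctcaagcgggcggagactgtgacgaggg
Slc2a1 (chr4:119108495-119108794, plus strand): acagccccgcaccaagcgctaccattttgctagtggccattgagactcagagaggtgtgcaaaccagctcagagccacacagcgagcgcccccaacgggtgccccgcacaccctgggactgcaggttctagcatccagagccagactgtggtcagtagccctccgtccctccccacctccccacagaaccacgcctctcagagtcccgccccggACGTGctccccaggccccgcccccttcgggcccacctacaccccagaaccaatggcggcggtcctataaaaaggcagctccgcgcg
Mgarp (chr3:51396498-51396797, minus strand): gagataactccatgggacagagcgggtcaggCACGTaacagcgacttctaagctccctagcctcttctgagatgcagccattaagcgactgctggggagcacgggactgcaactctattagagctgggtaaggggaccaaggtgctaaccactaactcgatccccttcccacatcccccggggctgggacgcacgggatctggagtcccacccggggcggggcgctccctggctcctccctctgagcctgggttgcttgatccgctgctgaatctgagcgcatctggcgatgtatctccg
Nsdhl (chrX:72918271-72918570, plus strand): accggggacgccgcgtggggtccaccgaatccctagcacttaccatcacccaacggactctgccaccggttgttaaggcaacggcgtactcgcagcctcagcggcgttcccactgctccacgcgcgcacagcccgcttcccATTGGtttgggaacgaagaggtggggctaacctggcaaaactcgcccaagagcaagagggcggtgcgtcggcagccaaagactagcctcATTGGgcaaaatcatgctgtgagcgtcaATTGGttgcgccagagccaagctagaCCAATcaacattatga
Hsd17b7 (chr1:169969156-169969455, minus strand): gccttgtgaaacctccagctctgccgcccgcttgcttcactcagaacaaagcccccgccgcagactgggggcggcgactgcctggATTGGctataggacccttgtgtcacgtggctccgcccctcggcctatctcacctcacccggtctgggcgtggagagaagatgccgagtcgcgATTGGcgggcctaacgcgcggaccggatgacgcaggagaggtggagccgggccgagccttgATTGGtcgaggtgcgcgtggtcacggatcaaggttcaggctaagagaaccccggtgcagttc
The matches of P4ha2 begin at bases -78 and 11 relative to the start, and that of Slc2a1 at base -36. On either strand ACGTG was present in 29 of 43 promoters (67.4%) of the hypoxia list and in 14 of 25 (56%) of the glycolysis list, against 2753 of 11133 (24.7%) for all genes tested here that had a promoter in the table and 19.7% of all 27025 promoters. Among genes called at least 2-fold higher at oxygen 1 it was present in 181 of 687 (26.4%), close to the share for all tested genes, and among those at least 2-fold lower in 95 of 507 (18.7%). CACGTG, the E-box that contains ACGTG, was present in 9 of 43 hypoxia promoters (20.9%) and in 4 of 18 cholesterol promoters (22.2%), against 9.77% for tested genes and 37 of 687 genes (5.39%) at least 2-fold higher. CCAAT was present in 15 of 18 cholesterol promoters (83.3%), against 38.7% for tested genes and 37.9% of all promoters. It was also present in 22 of 43 hypoxia promoters (51.2%), in 229 of 507 (45.2%) of genes at least 2-fold lower and in 269 of 687 (39.2%) of those at least 2-fold higher. No match to ACGTG lay in the windows of Vegfa and Gys1, and none to CCAAT in those of Dhcr7 and Acat2. The shares of the hypoxia, glycolysis and cholesterol lists depend on which genes were listed and use no measured difference. They are therefore no result about the comparison of the stresses. A match is a description of the letters and shows no binding.

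The 7 arrays of the 6 samples each held 43020 spots, of which 56.1% to 65.4% were well above background, and no spot was saturated. Levels below are log2 signals after subtraction of each array's 75th percentile, which is therefore 0, and they compare samples for one probe, not genes with each other. Across genes, samples correlated at 0.993 to 0.995 within oxygen 1, at 0.993 within starved and at 0.973 to 0.978 between the groups, so no library stood apart from its group. Macrophage markers were detected: 15 of the 16 tested were well above background in all 6 samples. Their summed signal, in multiples of the 75th percentile, was 592 to 704 at oxygen 1 and 640 to 803 starved. Such sums compare samples for one list, not lists with each other. Neutrophil markers summed to 22.7 to 33.1 at oxygen 1 and 14.5 to 21.3 starved, and lymphocyte markers to 7.71 to 9.59 at oxygen 1 and 10.5 to 11.7 starved. In bulk samples, fewer cells of a type and less RNA per cell cannot be told apart.

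Egln3 RNA was still measured in the knockout samples. The level of Egln3 was 2.84, 2.98 and 2.71 in the oxygen 1 samples, against -2.33, -2.29 and -2.61 in the starved samples, a difference of 5.26 ± 0.16 (SE; 38.2-fold, adjusted p = 8.67e-12). The groups were far apart, and the other Egln3 probe gave the same order, at 2.28, 2.26 and 2.22 at oxygen 1, against -2.76, -2.82 and -3.26 starved. Wild-type cells gave 5.20 for the same contrast. Both probes were well above background in all 18 samples, and where they lie with respect to the deletion is not known here, so Egln3 does not check the genotype labels.

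Of the 12 tested genes of the HIF pathway, 6 were higher at oxygen 1, none was lower, and the median difference was 0.29, beside a median of 0.0033 over all 20568 genes tested. In that whole set 19.4% of genes were higher and 18.2% lower. Egln3, Egln1, Vhl and Hif3a were among those 6. Egln1, the gene of PHD2, stood at -0.74, -1.45 and -1.15 at oxygen 1, against -3.17, -3.94 and -4.22 starved (difference 2.66 ± 0.24, adjusted p = 8.91e-07). Vhl, whose protein receives the hydroxylated subunits, averaged 2.85 ± 0.11 at oxygen 1 and 1.05 ± 0.20 starved (SD, n = 3 each), a difference of 1.80 ± 0.10. Hif3a, an alpha subunit whose variants can restrain the others, averaged -0.19 ± 0.11 at oxygen 1 and -1.62 ± 0.38 starved. Its control mean of -0.72 lay between them, with starvation 0.91 below control and oxygen 1 0.53 above it. This probe of Hif3a gave a difference of 1.43 between the groups, and its other probes gave 0.63 and 0.46. The transcripts of the main alpha subunits did not pass the test: the difference was -0.13 ± 0.25 for Hif1a, with a 95% interval of -0.66 to 0.39, and 0.07 ± 0.09 for Epas1, with an interval of -0.13 to 0.27. Egln2, the gene of PHD1, and Hif1an, the asparaginyl hydroxylase, differed by -0.24 and -0.17 and did not pass either. Egln2 did pass in 3 of 18 alternatives, and over all alternatives 0 to 2 genes of the list were lower. Arnt passed with 0.58 (adjusted p = 0.0442), but its other probe gave -0.46, and 11 of 18 alternative settings lost the call.

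Over all genes, 7725 of 20568 (37.6%) passed limma's test at an adjusted p of 0.05, 3986 higher and 3739 lower at oxygen 1. At least 2-fold differences were found for 2250 genes (10.9%), and they leaned toward oxygen 1: 1382 were higher (6.72%) and 868 lower (4.22%). The lean grew with size, to 384 higher against 123 lower at 4-fold and 119 against 13 at 8-fold. Set against the shared 3 knockout control samples, oxygen 1 changed 8269 genes (40.2%; 21.6% up and 18.6% down) and starvation 2818 genes (13.7%; 7.25% up and 6.45% down). The oxygen 1 and starved samples did not overlap for 10380 genes (50.5%).

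The 12 largest positive differences among the eligible genes ran from Mgarp to Ak4. Mgarp, a mitochondrial protein induced by hypoxia, stood at 3.47, 3.40 and 3.19 at oxygen 1, against -4.94, -5.54 and -5.72 starved, a difference of 8.75 ± 0.32 (431-fold, adjusted p = 5.46e-11). Gipr, the receptor of the gut hormone GIP, stood at 2.07, 1.96 and 1.85 at oxygen 1, against -6.43, -6.34 and -6.30 starved (8.32 ± 0.21), and 2 of 3 starved samples were well above background. Arg1, the arginase of alternatively activated macrophages, stood at 1.59, 1.28 and 1.28 at oxygen 1, against -6.78, -6.73 and -5.43 starved (7.70 ± 0.47), with 1 of 3 starved samples above background. In each of these 3 genes starvation left the level within the reach of control: the starved minus control difference was 0.69 for Mgarp, -0.00066 for Gipr and 1.21 for Arg1, none past the threshold, although no control sample was well above background for any of them. Ppp1r3g and Ppp1r3c, which bring a phosphatase to glycogen, were not well above background in any starved sample and were at least 57.3-fold and at least 16.4-fold higher at oxygen 1. Such bounds take the dim group at the lowest signal well above background on each array, which is not a strict limit. Apln, a vasoactive peptide, was at least 24.6-fold higher and Foxj1, a factor known from ciliated cells, at least 14.7-fold. Rcor2, a corepressor subunit, stood at 2.82, 3.01 and 3.22 at oxygen 1, against -2.71, -2.89 and -2.78 starved (5.81 ± 0.10). Ak4, a mitochondrial adenylate kinase, differed by 5.30 ± 0.19, Plod2, a collagen lysyl hydroxylase, by 5.55 ± 0.30 and Smtnl2 by 6.89 ± 0.27. Smtnl2 was well above background in 2 of 3 starved samples, and its smallest difference over all alternatives was 4.91.

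Ccn2, a matricellular protein, reached the list of largest differences from the other side. Ccn2 stood at -0.13, -0.27 and -0.40 at oxygen 1, against -7.79, -8.34 and -6.50 starved, where no sample was well above background, so it was at least 78.6-fold higher at oxygen 1. The control mean of Ccn2 was -0.47 ± 0.20 (SD, n = 3): oxygen 1 differed from control by 0.20 (adjusted p = 0.79), and starvation, at background, by -7.08 (adjusted p = 4.56e-07).

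**Figure D1:**
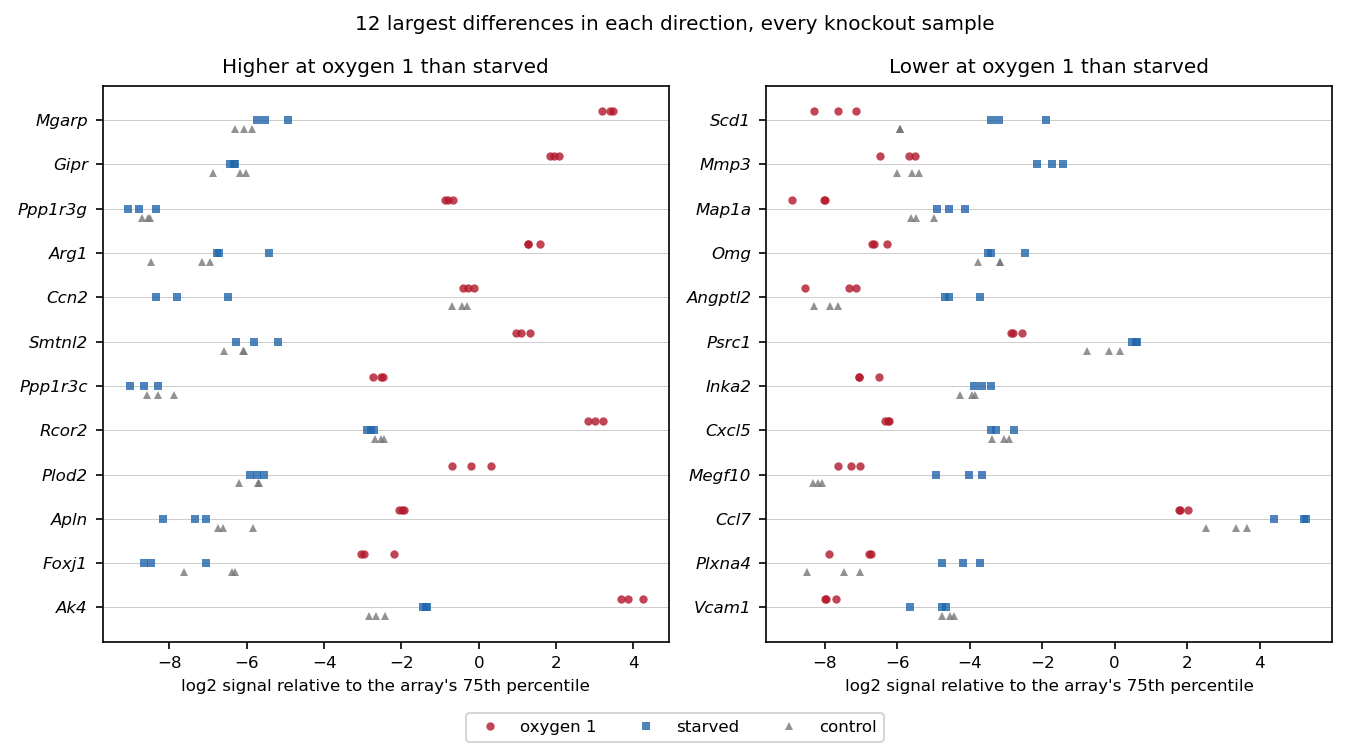
Log2 signal of every knockout sample (x axis, relative to the array's 75th percentile) for the 12 genes with the largest positive (left) and the 12 with the largest negative difference (right) among called genes with an established symbol whose groups do not overlap and whose probe is above background in 1 or both groups. Circles are oxygen 1, squares starved and triangles control; all 3 oxygen 1 samples of Mgarp lie right of all other samples, whereas Ccn2 is low in the 3 starved samples.

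Genes at the negative end differed in where they stood against the shared controls. Scd1, the desaturase that makes oleate, stood at -7.13, -8.29 and -7.64 at oxygen 1, none well above background, against -3.40, -1.89 and -3.19 starved, and was at least 12.3-fold lower at oxygen 1 (adjusted p = 2.55e-07). Relative to control it differed by -1.76 at oxygen 1 and by 3.096 after starvation. Mmp3, stromelysin, stood at -5.67, -5.52 and -6.48 at oxygen 1, against -2.14, -1.74 and -1.43 starved (-4.12 ± 0.37), with starvation 3.89 above control and oxygen 1 at -0.22 from it. Angptl2, Megf10, an engulfment receptor, and Plxna4, a semaphorin receptor, also stood far above control after starvation, by 3.59, 3.995 and 3.44, but none of these 3 genes was well above background in any oxygen 1 or control sample. At oxygen 1 they were at least 4.34-fold, 4.74-fold and 4.68-fold lower than after starvation. Cxcl5, a neutrophil chemokine, differed by -3.12 ± 0.21, where starved cells were at -0.03 from control and oxygen 1 cells at -3.15. Mmp3 and Cxcl5 were each well above background in 2 of 3 oxygen 1 samples. Their smallest differences over all alternatives were -2.15 and -1.28. Omg, Inka2, Map1a and Vcam1, the adhesion molecule, were not well above background in any oxygen 1 sample, and were at least 9.62-fold, 6.92-fold, 3.75-fold and 2.67-fold lower there than starved. Their starved level was not past the threshold against control. Ccl7, a monocyte chemokine, moved both ways: 1.81, 1.78 and 2.03 at oxygen 1, against 4.41, 5.29 and 5.22 starved, around a control mean of 3.18. Psrc1, a mitotic spindle protein and p53 target, stood at -2.54, -2.79 and -2.85 at oxygen 1, against 0.58, 0.47 and 0.62 starved (-3.29 ± 0.24). Under normexp background correction, which raises dim signals, Angptl2, Megf10 and Vcam1 lost their calls, and the smallest difference of Ppp1r3c, Apln, Foxj1 and Scd1 over all alternatives was 2.004, 2.17, 1.88 and -1.68. That of Ccn2 was 3.87 and that of Ppp1r3g 3.60, so the bounds above hold for the main scaling and not under normexp correction. A second probe gave -2.15 for Map1a and -0.76 for Plxna4, whose call was lost when probes were averaged.

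In the hypoxia list, 39 of 51 tested genes were higher at oxygen 1 and 4 lower, with a median difference of 1.89. Relative to the shared controls, 42 rose and 4 fell at oxygen 1 (median 2.18), and 14 rose and 4 fell after starvation (median 0.17). Ankrd37, whose promoter is printed above, stood at 3.36, 3.56 and 3.76 at oxygen 1, against -1.34, -1.16 and -1.18 starved (4.79 ± 0.12, adjusted p = 1.07e-12). Fam162a, a mitochondrial protein linked to cell death in hypoxia, stood at 6.80, 7.00 and 6.87 at oxygen 1, against 2.54, 2.53 and 2.64 starved (4.32 ± 0.09). Vegfa, the vascular growth factor, stood at 2.77, 2.90 and 2.90 at oxygen 1, against -1.19, -1.16 and -1.36 starved (4.09 ± 0.12). Every sample of these 3 genes at oxygen 1 lay above every starved sample by more than 3 log2 units. Some HIF targets also stood above control after starvation, by much less: Ankrd37 by 1.24, Egln3 by 1.54, Ak4 by 1.26 and Hilpda by 1.18, each past the threshold. The 4 members that were lower at oxygen 1 were Car9, Plin2, Pfkfb4 and Rab20. Car9, a carbonic anhydrase widely used as a hypoxia marker, stood at 0.23, 0.25 and -0.03 at oxygen 1, against 1.19, 1.07 and 1.09 starved (-0.97 ± 0.13, adjusted p = 4.34e-05). The control mean of Car9 was 1.20, from which oxygen 1 differed by -1.05. Plin2, the lipid droplet coat, differed by -0.81, with starvation 0.82 above control and oxygen 1 0.02 above it. Rab20 lost its call in 10 of 18 alternatives.

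**Figure D2:**
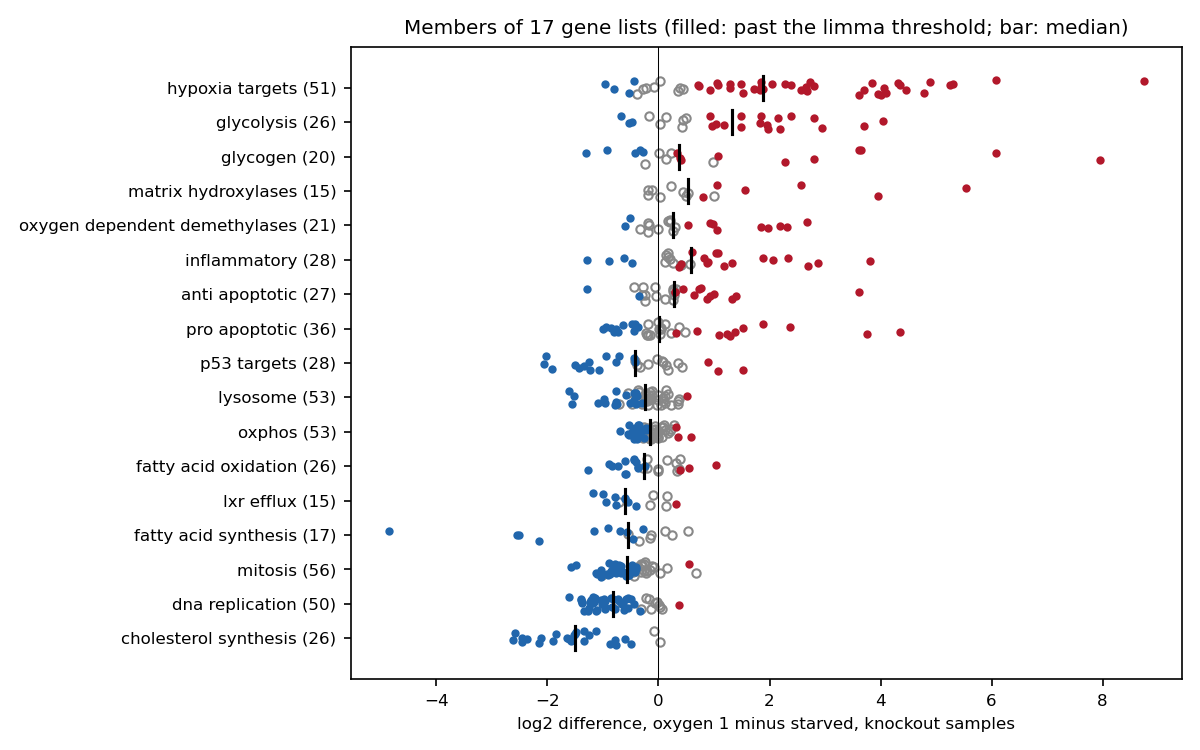
Log2 difference, oxygen 1 minus starved, in knockout samples (x axis) for each tested member of 17 gene lists, with the number tested in parentheses. Filled points passed limma's threshold (red higher, blue lower), open points did not, and the bar is the median: the hypoxia list lies furthest right at 1.89 and cholesterol synthesis furthest left at -1.51. The lists were chosen with earlier results of these data known.

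Glycolysis separated the groups along most of its length. Of 26 tested genes of glucose transport, glycolysis and pyruvate control, 17 were higher at oxygen 1 and 3 lower (median 1.33), with 20 above control at oxygen 1 and 4 after starvation. Slc16a3, the lactate exporter, stood at 6.92, 6.72 and 6.88 at oxygen 1, against 3.05, 2.87 and 2.45 starved (4.05 ± 0.22). Slc2a1, the glucose carrier at the head of the pathway, stood at 6.00, 6.27 and 5.94 at oxygen 1, against 2.27, 2.27 and 2.56 starved (3.71 ± 0.17). Tpi1, a central enzyme, differed by 1.95 ± 0.11 and Pdk1, which keeps pyruvate out of the mitochondrion, by 2.80 ± 0.14. Isoenzymes went different ways: Hk3, a hexokinase of myeloid cells, was lower at oxygen 1 by a difference of -0.68 (adjusted p = 0.00201), and Pfkfb4, which makes an activator of phosphofructokinase, by -0.54. Named after their values were seen, the hexokinases Hk1 and Hk2 differed by 2.15 and 2.39, and Gapdh by 0.49, which missed the threshold (adjusted p = 0.12).

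Glycogen genes went both ways. Of 20 tested, 10 were higher and 5 lower at oxygen 1 (median 0.36), and none passed the threshold after starvation against control. Gys1, the muscle-type glycogen synthase, stood at 3.64, 3.41 and 3.33 at oxygen 1, against -0.13, -0.15 and -0.20 starved (3.62 ± 0.11), and Pgm1, which feeds glucose phosphate into glycogen, differed by 2.81 ± 0.18. Phka2, a subunit of phosphorylase kinase, stood at 1.45, 0.83 and 0.82 at oxygen 1, against 2.32, 2.40 and 2.30 starved (-1.31 ± 0.16), and Pygb, a glycogen phosphorylase, differed by -0.93 ± 0.15. Gyg, glycogenin, the primer of glycogen synthesis, was also lower, at -0.33 (adjusted p = 0.0305), and lost its call in 8 of 18 alternatives. Named after its values were seen, Pygl, another phosphorylase, was higher, at 1.07.

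Oxygen-using enzymes of collagen and chromatin were often higher at oxygen 1. Of 15 tested matrix hydroxylases and lysyl oxidases, 6 were higher and none lower (median 0.53), and none of these 15 was lower under the alternatives run. That is 40% called, beside 37.6% of all genes in either direction. P4ha2, a collagen prolyl hydroxylase, stood at 4.60, 4.34 and 4.57 at oxygen 1, against 0.91, 0.28 and 0.48 starved (3.95 ± 0.14). P4ha1 differed by 2.56 ± 0.23, and P4hb, the subunit both share, by 1.51 ± 0.13. Of 21 tested oxygen-dependent demethylases and relatives, 9 were higher and 2 lower (median 0.26). Kdm3a, which removes a repressive methyl mark from histones, stood at 3.85, 3.94 and 3.96 at oxygen 1, against 1.24, 1.20 and 1.27 starved (2.68 ± 0.09). Kdm4b, another eraser of that mark, differed by 2.19 ± 0.15. Kdm6b, an eraser of the Polycomb mark known from macrophage activation, differed by 2.32 ± 0.15 and was 0.83 below control after starvation. Jmjd6 differed by 1.84 in the same direction.

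Among the gene lists, which were chosen with earlier results of these data known, cholesterol synthesis gave the clearest opposite pattern. None of its 26 tested genes was higher at oxygen 1 and 24 were lower, with a median of -1.51, and over all alternatives 22 to 24 were lower and none higher. Against the shared controls 14 fell and none rose at oxygen 1 (median -0.64), and 22 rose and none fell after starvation (median 0.97), so the gap had a part on each side. Dhcr7, which makes cholesterol in the last step of one branch, stood at -2.26, -2.60 and -2.23 at oxygen 1, against -0.17, -0.02 and -0.43 starved (-2.16 ± 0.14, adjusted p = 3.59e-08), where control cells lay between them. Nsdhl, a sterol dehydrogenase, stood at -2.13, -2.29 and -2.36 at oxygen 1, against -0.58, 0.08 and -0.56 starved (-1.91 ± 0.14), with a control mean of -1.31. Hsd17b7 differed by -1.61 ± 0.14 and Acat2, at the entry of the pathway, by -1.65 ± 0.14. The 3 starved samples lay above the 3 control samples, and those above the 3 oxygen 1 samples, in each of these 4 genes. Named after their values were seen, Fdps had the largest difference of the list at -2.63, and the master factor Srebf2 differed by -0.60. Scap, the escort of SREBP, did not pass, at -0.08.

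Fatty acid synthesis and desaturation followed the same direction in fewer genes: 10 of 17 were lower, none higher (median -0.54). Elovl6, an elongase, stood at -4.79, -4.56 and -4.55 at oxygen 1, against -2.53, -1.66 and -2.16 starved (-2.52 ± 0.21). Fads1, a desaturase of polyunsaturated fatty acids, stood at -2.20, -2.58 and -2.07 at oxygen 1, against -0.12, 0.15 and -0.43 starved (-2.15 ± 0.17), close to its control mean of -0.32 after starvation. Fads2 was not well above background in any oxygen 1 sample and was at least 2.24-fold lower there, a call lost under normexp correction. Together with Scd1 these desaturases and the elongase held the 4 largest differences of the list.

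Lipid transport and storage divided by gene. Fabp4, a fatty acid carrier of macrophages, stood at 0.56, 0.73 and 0.96 at oxygen 1, against 2.58, 2.81 and 2.80 starved (-1.98 ± 0.13), with a control mean of 0.76. Fabp5, its relative, stood at 6.40 and 6.29 in the 2 oxygen 1 samples with a value, against 7.50, 7.89 and 7.56 starved (-1.30 ± 0.19). Hilpda, which inhibits the lipase of lipid droplets, stood at 4.44, 4.44 and 4.31 at oxygen 1, against 1.86, 1.53 and 1.61 starved (2.73 ± 0.10). Vldlr, a lipoprotein receptor induced by hypoxia, differed by 2.22 ± 0.13 and Dgat2, which makes triglyceride, by 1.84 ± 0.14. In the whole lipid droplet and uptake list 3 of 17 were higher and 6 lower (median -0.33). Sterol efflux genes under LXR were mostly lower at oxygen 1, 9 of 15 with 1 higher (median -0.60), such as Abcg1, a sterol exporter, at -0.99 ± 0.13 and Lpcat3, a phospholipid remodelling enzyme, at -0.94 ± 0.13. Abcg1 stood 0.66 above control after starvation and 0.33 below it at oxygen 1, where it missed the threshold.

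**Figure D3:**
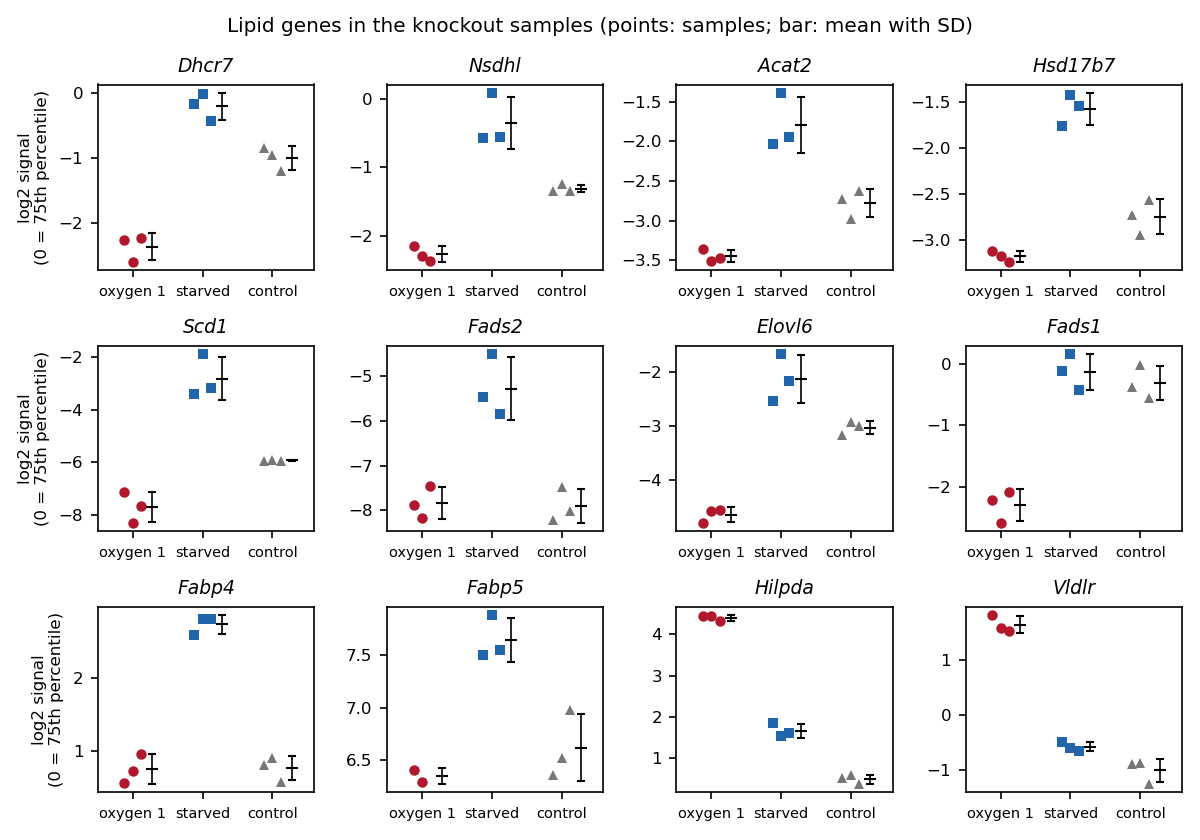
Log2 signal (y axis, 0 is the array's 75th percentile) of 12 lipid genes in the oxygen 1, starved and control knockout samples. Points are samples and the bar is the mean with SD; in the 4 cholesterol genes of the top row oxygen 1 is lowest and starved highest, and Hilpda and Vldlr are highest at oxygen 1.

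Genes of mitochondrial fuel use leaned lower at oxygen 1 by small amounts. In the tricarboxylic acid cycle list 8 of 24 were lower and 1 higher (median -0.20). Among nuclear-encoded oxidative phosphorylation subunits 19 of 53 were lower and 3 higher (median -0.15). Called in either direction were 37.5% of the cycle genes and 41.5% of the subunits, beside 37.6% of all genes. Over the alternatives 5 to 11 cycle genes and 11 to 29 subunits were lower. Idh1 differed by -1.05 ± 0.16, Idh2 by -0.73, Mdh1 by -0.75 ± 0.11, Ndufs8, of complex I, by -0.70 ± 0.14 and Cyc1, of complex III, by -0.53 ± 0.10. The 1 higher gene of the first list was Acod1, which makes itaconate in activated macrophages; it stood at 6.84, 6.63 and 6.45 at oxygen 1, against 5.65, 5.37 and 5.36 starved (1.18 ± 0.13). Of 26 fatty acid oxidation genes 13 were lower and 3 higher (median -0.26). Decr1, an auxiliary enzyme for unsaturated fatty acids, had the largest fall at -1.27 ± 0.14, and Acsl1, which activates fatty acids, was higher by 1.04.

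Proliferation genes were low in both stresses and lower at oxygen 1. Of 50 tested DNA replication genes 39 were lower at oxygen 1 than starved and 1 was higher (median -0.83). Against the shared controls 44 fell at oxygen 1 (median -1.41) and 28 fell and 1 rose after starvation (median -0.63). Mcm2, of the replicative helicase, stood at -1.18, -1.29 and -0.90 at oxygen 1, against 0.39, 0.24 and 0.16 starved (-1.39 ± 0.14), with a control mean of 1.15. Pola1, the polymerase that primes DNA, stood at -2.33, -2.17 and -1.80 at oxygen 1, against -0.92, -0.55 and -0.66 starved (-1.39 ± 0.14), with a control mean of 0.08. These values form 3 steps with no overlap between groups. Cdt1, a licensing factor, differed by -1.23 ± 0.12, but starved cells were 0.06 from control. Of 56 mitotic genes 35 were lower and 1 higher (median -0.56), with 54 below control at oxygen 1 and 47 after starvation. Foxm1, the factor that drives mitotic genes, differed by -1.04 ± 0.16, Spc24, of the kinetochore, by -1.12 ± 0.17 and Mybl2 by -0.85 ± 0.13. Bub1, a checkpoint kinase, was the 1 mitotic gene higher at oxygen 1, by 0.56 (adjusted p = 0.0248), and lost its call in 4 of 18 alternatives.

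Drivers and inhibitors of the cell cycle differed gene by gene. Ccnd1, the cyclin that growth factors induce, stood at 0.90, 1.09 and 0.93 at oxygen 1, against 3.31 and 3.50 in the 2 starved samples with a value (-2.43 ± 0.18). Cdkn1a, the p53-inducible inhibitor p21, stood at 3.45, 3.23 and 3.12 at oxygen 1, against 4.61, 4.43 and 4.47 starved (-1.24 ± 0.15), and Cdkn1b, the inhibitor p27, at 2.37, 2.38 and 2.31 at oxygen 1, against 0.80, 0.79 and 0.37 starved (1.70 ± 0.13). Against control Cdkn1a differed by -0.40 at oxygen 1 and 0.83 after starvation, and Cdkn1b by 1.53 at oxygen 1 and -0.17 after starvation, the last not past the threshold. Myc, a transcription factor of growth, was higher at oxygen 1 by 1.68 ± 0.20, Mxd1, its antagonist, by 1.33 ± 0.14, and Btg1, an antiproliferative gene, by 1.24 ± 0.15. In the whole list of cyclins and inhibitors 6 of 21 were higher and 7 lower, with a median of 0.02 that ran from -0.13 to 0.13 over the alternatives.

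Targets of p53 were lower at oxygen 1 in 14 of 28 cases and higher in 3 (median -0.42). Phlda3, an inhibitor of AKT, stood at 2.34, 1.97 and 1.86 at oxygen 1, against 4.34, 3.88 and 4.11 starved (-2.05 ± 0.14), with a control mean of 3.21. Gdf15, a stress cytokine, differed by -2.03 ± 0.14 with starved cells 0.12 from control, Plk3 by -1.92 ± 0.11 and Ccng1 by -1.43 ± 0.12. Fas, the death receptor, went the other way, at 2.36, 2.34 and 2.45 at oxygen 1, against 0.71, 0.86 and 0.99 starved (1.53 ± 0.11). The control mean of Fas was 1.74, between the groups.

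Cell survival under stress is the subject that the series title names, and cell death genes moved in both directions. Of 36 pro-apoptotic genes 11 were higher and 11 lower at oxygen 1 (median 0.01, from -0.06 to 0.07 over the alternatives). The higher ones included HIF targets: Bnip3, a mitophagy receptor of the BCL2 family, stood at 7.13, 6.82 and 6.62 at oxygen 1, against 2.53, 2.43 and 2.54 starved (4.35 ± 0.14), and Bnip3l, its relative, differed by 1.89 ± 0.09. Dapk2, a death-associated kinase, stood at -1.93, -2.04 and -1.74 at oxygen 1, against -5.07, -6.06 and -5.86 starved (3.76 ± 0.27). Dapk2 was well above background in 2 of 3 starved samples, and its smallest difference over all alternatives was 2.05. The lower ones included the BH3-only genes Bbc3 (PUMA), at -0.95 ± 0.11, and Bcl2l11 (BIM), at -0.81 ± 0.18. Against control Bbc3 differed by -0.53 at oxygen 1 and 0.42 after starvation, and Bcl2l11 by 0.59 at oxygen 1 and 1.402 after starvation. Among 27 anti-apoptotic genes 12 were higher and 2 lower (median 0.27). Ier3, an early response survival gene, stood at 4.06, 3.77 and 4.07 at oxygen 1, against 0.18, 0.50 and 0.38 starved (3.61 ± 0.14). Tnfaip3, the NF-kB brake A20, was higher by 1.33 ± 0.13 and Igf1r, the IGF1 receptor, by 1.404 ± 0.118, while Bcl2 itself stood at -2.85, -3.13 and -3.38 at oxygen 1, against -1.83, -1.71 and -1.98 starved (-1.28 ± 0.14).

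**Figure D4:**
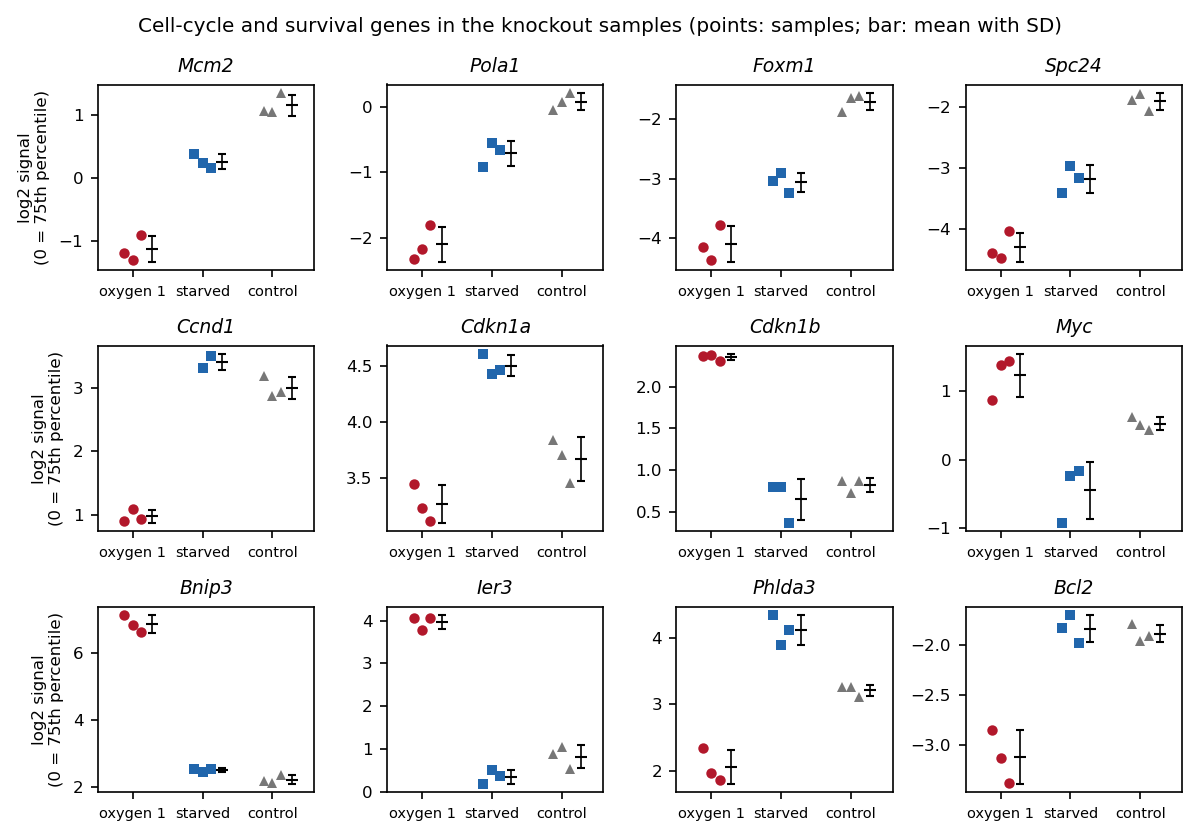
Log2 signal (y axis, 0 is the array's 75th percentile) of 12 cell-cycle and survival genes in the oxygen 1, starved and control knockout samples. Points are samples and the bar is the mean with SD; Mcm2 and Pola1 are lowest at oxygen 1, next starved and highest in control, and Cdkn1a is highest after starvation whereas Cdkn1b is highest at oxygen 1.

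Genes that read nutrients separated the groups gene by gene. In the ATF4 list 14 of 33 were higher at oxygen 1 and 6 lower (median 0.30), and 13 rose and 13 fell at oxygen 1 against control, with 2 rising and 12 falling after starvation. Ddit4, an inhibitor of mTORC1 induced by HIF and by ATF4, stood at 4.24, 4.39 and 4.30 at oxygen 1, against 2.63, 2.001 and 2.18 starved (2.04 ± 0.15), and both groups were above the control mean of 1.401. Eif4ebp1, which holds back cap-dependent translation, differed by 1.75 ± 0.09, Aldh1l2, a mitochondrial folate enzyme, by 2.17 ± 0.18 and Trib3, a pseudokinase, by 1.30 ± 0.20. Phgdh, the first enzyme of serine synthesis, was lower by a difference of -1.60 ± 0.23. Sestrins, which also restrain mTORC1, were lower at oxygen 1: Sesn1 stood at 1.29, 1.42 and 1.27 at oxygen 1, against 2.53, 2.68 and 2.77 starved (-1.34 ± 0.14), and Sesn2 differed by -0.77 ± 0.13. Against control the starved difference was -0.10 for Sesn1 and 0.10 for Sesn2, neither past the threshold. Among FOXO and insulin pathway genes 5 of 17 were higher and 4 lower (median 0.30), with Txnip, a brake on glucose uptake, at 1.27 ± 0.14 and Trp53inp1 at -1.50 ± 0.17. Igf1 gave -0.84 ± 0.15 by its brightest probe, but its 4 probes ranged from -1.04 to 0.28.

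Autophagy and lysosome genes leaned to opposite sides, while 35% and 37.7% were called in either direction, beside 37.6% of all genes. Of 40 autophagy genes 11 were higher at oxygen 1 and 3 lower (median 0.13), such as Atg2b at 1.23, Rb1cc1, of the initiating kinase complex, at 1.06 and Atg9a at 1.04. Of 53 lysosomal genes 19 were lower and 1 higher (median -0.24), and 9 rose and none fell after starvation. Over the alternatives 9 to 11 autophagy genes were higher and 1 to 6 lower. For lysosomal genes the counts were 0 to 4 higher and 13 to 27 lower. Lipa, the lysosomal acid lipase that frees stored cholesterol and fatty acids, stood at 2.45, 1.92 and 2.17 at oxygen 1, against 3.90, 3.63 and 3.71 starved (-1.56 ± 0.13). Gpnmb, a glycoprotein of lysosomal stress, differed by -1.62 ± 0.15 and Atp6v0d2, a proton pump subunit, by -1.52 ± 0.16, and both stood above control after starvation, by 1.51 and 2.20.

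In the unfolded protein response 10 of 27 were higher and 2 lower (median 0.13, from 0.03 to 0.22 over the alternatives), led by Ero1a, the oxidase of the endoplasmic reticulum, at 3.61, 3.86 and 3.97 at oxygen 1, against -0.83, -0.47 and -0.63 starved (4.46 ± 0.19). Of 14 heat shock genes 4 were higher and none lower, with a median of 0.10 that ran from -0.07 to 0.16 over the alternatives, and Hspa1a differed by 1.70 ± 0.34. Among 19 aminoacyl-tRNA synthetases 7 were lower and 1 higher (median -0.06), with 3 lower without oxygen 1 replicate 2 and 4 without starved replicate 1 or 2. Among 39 ribosome biogenesis genes 11 were lower and 1 higher (median -0.15). The count of lower genes was 7 without oxygen 1 replicate 1, starved replicate 2 or starved replicate 3, and 6 without oxygen 1 replicate 2. Of 53 ribosomal protein genes 10 were higher and none lower (median 0.23), but across the alternatives 0 to 16 were higher and the median ran from -0.07 to 0.32. Quantile normalization and the authors' deposited value table were the settings with 0. Without oxygen 1 replicate 2 or 3 the count was 3 and 16, and without starved replicate 1 or 3 it was 5 and 6. NRF2 and iron genes had 5 higher and 4 lower of 29, with a median of 0.10 that ran from -0.11 to 0.16, and 9 were higher without starved replicate 1. Called in either direction were 31.0% of that list, 28.6% of heat shock, 30.8% of ribosome biogenesis and 18.9% of ribosomal protein genes. For all genes that share was 37.6%, and it was 44.4% in the unfolded protein response and 42.1% among the synthetases.

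Inflammatory genes were mostly higher at oxygen 1, 16 of 28 with 4 lower (median 0.59). Nos2, the inducible nitric oxide synthase, stood at 4.03, 3.99 and 4.17 at oxygen 1, against 0.30, 0.48 and -0.0047 starved (3.80 ± 0.27), while Arg1, which competes for the same arginine, differed by 7.70 with 1 of 3 starved samples above background, and by 5.35 under normexp correction. Ptgs2, the inducible cyclooxygenase, stood at 1.38, 1.405 and 2.06 at oxygen 1, against -1.52, -1.17 and -1.09 starved (2.88 ± 0.23). Il6 stood at 0.50, 0.22 and 0.22 at oxygen 1, against -2.31, -1.98 and -1.76 starved (2.33 ± 0.17), with the control mean of -0.92 between the groups. Nlrp3, the inflammasome sensor, differed by 2.06 by its brightest probe and by 1.01 by the other. The lower genes included Tnf, at -0.62 ± 0.14, the receptor Tlr2, at -0.89 ± 0.13, and Il1rn, the interleukin 1 receptor antagonist, at -1.30 ± 0.22. Il1rn was above control in both stresses, by 1.29 at oxygen 1 and by 2.59 after starvation. Of 31 interferon-stimulated genes 10 were higher and 1 lower (median 0.22), with Ifi27 at 1.75 and Cxcl10 at 1.34. Called in either direction were 35.5% of that list, beside 37.6% of all genes.

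Chemokine genes were split. Of 28 tested 12 were higher and 6 lower (median 0.49, from 0.25 to 0.53 over the alternatives). Ccl2, the main monocyte attractant, stood at 4.27, 4.61 and 4.58 at oxygen 1, against 5.78, 6.56 and 6.48 starved (-1.79 ± 0.21), in the direction given above for Ccl7. Cxcl14 differed by -1.88 ± 0.29. Cxcl2, a neutrophil attractant, stood at 2.28, 1.47 and 1.22 at oxygen 1, against -0.59, -0.54 and -0.84 starved (2.31 ± 0.20), with a control mean of 1.04, whereas Cxcl5, which acts on the same receptor, was lower at oxygen 1. Ccrl2, an atypical receptor, differed by 2.13 ± 0.15.

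Surface receptors and antigen presentation also differed. Of 27 phagocytic receptors and bridging proteins 11 were lower and 3 higher at oxygen 1 (median -0.42). Mertk, the receptor for dying cells, stood at -2.55, -2.80 and -2.59 at oxygen 1, against -0.43, -0.56 and -0.91 starved (-2.01 ± 0.17), and Pros1, the bridge that links it to dying cells, at -1.28, -0.97 and -0.76 at oxygen 1, against 0.43, 0.64 and 0.84 starved (-1.64 ± 0.14). Neither passed against control after starvation, at -0.18 for Mertk and -0.12 for Pros1. Some Fc receptors for antibody moved the other way: Fcgr2b differed by 2.46 ± 0.27, Fcgr3 by 1.08 and Fcgr4 by 0.95. Of 12 tested MHC class II genes 5 were higher and 4 lower (median 0.37, from 0.16 to 0.53 over the alternatives), with 3 higher without oxygen 1 replicate 3 or starved replicate 3. H2-Ab1, a class II beta chain, stood at 3.23, 3.03 and 2.48 at oxygen 1, against -0.81, -1.16 and -1.38 starved (4.03 ± 0.24), and Cd74, the invariant chain, differed by 1.71 ± 0.30. H2-Aa, the class II alpha chain that pairs with H2-Ab1, was lower, at least 1.42-fold, with no oxygen 1 sample and 2 of 3 starved samples above background, and lost its call in 7 of 17 alternatives. The peptide editor genes H2-DMa and H2-DMb1 were lower, at -0.76 and -0.66. Alternative activation genes gave 7 higher and 5 lower of 17 (median 0.16). Mrc1, the mannose receptor, stood at 0.09, -0.21 and -0.61 at oxygen 1, against 1.74, 2.05 and 1.43 starved (-1.98 ± 0.29), and Cd209f, a lectin, differed by -2.38 ± 0.46. Clec10a, a galactose lectin, was higher by 2.42 ± 0.15, and Fn1, fibronectin, by 2.77 ± 0.28, with starvation 2.19 below control.

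Markers of other cells also differed, and their part in the lists above was not tested. Of 14 stromal and endothelial markers 6 were higher and 3 lower, with a median of 0.05 that ran from -0.03 to 0.96 over the alternatives, and their summed signal was 5.83 to 6.99 at oxygen 1 and 5.32 to 6.94 starved, with 6.12 to 9.09 in control. Col1a1, the main chain of type I collagen, stood at 0.13, -0.42 and -0.73 at oxygen 1, against -4.29, -4.04 and -3.57 starved (3.63 ± 0.29), and its partner Col1a2 differed by 2.04 ± 0.26. Acta2, smooth muscle actin, differed by 1.51 ± 0.20. The 3 lower members were Vcam1 at -2.85, Mgp at -2.10 and Lum at -0.70. No oxygen 1 sample was well above background for Vcam1, and 1 was for Mgp. Starved cells were 3.52 below control for Col1a1, 2.81 for Col1a2 and 2.09 for Acta2. Of 14 neutrophil markers 8 were higher and 1 lower (median 0.87), or 4 higher without oxygen 1 replicate 1 or without starved replicate 1, with Camp at 1.83 ± 0.19 and starved cells 1.89 below control. Of 8 mast cell, basophil and eosinophil markers tested, 3 were higher and 2 lower, and 4 were well above background in all 6 samples. Their median difference was -0.39, from -0.49 to 0.78 over the alternatives. Their summed signal, in which bright members weigh most, was 2.98 to 4.19 at oxygen 1 and 1.06 to 1.24 starved, with 0.921 to 1.02 in control. Ccr3, the eotaxin receptor, stood at 0.70, 0.72 and 0.77 at oxygen 1, against -2.03, -2.74 and -1.84 starved (2.93 ± 0.20), and Siglecf differed by 1.64 ± 0.27, while Tpsb2, a mast cell tryptase, was lower by a difference of -1.81. Erythroid and megakaryocyte markers summed to 16.3 to 33.6 at oxygen 1 and 11.3 to 14.6 starved, with 6.93 to 7.71 in control. Of these 7 markers 1 was higher (Pf4, a platelet chemokine, at 1.02) and 2 lower. Their median difference was -0.22, against the direction of the sum, from -0.31 to 0.21 over the alternatives, and 4 were well above background in all 6 samples. Among macrophage markers 7 of 16 were lower and 1 higher (median -0.38). The higher one was Csf1r, the receptor of the culture's growth factor, at 0.75 ± 0.11, and Lyz2 was lower at -0.95.

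Immediate early factors gave 8 higher and 9 lower of 27, with a median of 0.16 that ran from -0.31 to 0.24 over the alternatives. Fos, Egr2 and Nr4a1 were lower at oxygen 1, at -1.29, -1.28 and -1.19, as was the ERK phosphatase Dusp4, at -1.93. Atf3, a stress factor, was higher by 0.81.

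The same contrast in wild-type cells, whose samples are not in the knockout comparison, gave a similar count. There 7949 genes (38.6%) passed, and 6497 passed in both genotypes in the same direction, which is 84.1% of the knockout calls and 81.7% of the wild-type calls. Of the 7725 knockout calls 7711 had the same sign in wild type. Across the 20568 genes, which are not independent and share the array design, the wild-type difference followed the knockout difference with r = 0.925 and a slope of 0.935. List medians lay close together: 1.89 in knockout and 2.03 in wild type for hypoxia, 1.33 and 1.33 for glycolysis, -1.51 and -1.64 for cholesterol synthesis, and -0.83 and -0.89 for DNA replication.

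Whether the gap itself differed between genotypes was tested with the interaction term, and 0 genes passed in limma (smallest adjusted p = 0.999916). At an unadjusted p under 0.05 there were 251 genes (1.22%), and no alternative gave a call. That share lies under the 0.05 that a test without true differences would give, and why was not tested. The 0 calls do not show that the gap is equal in both genotypes. The smallest p of this test belonged to Epo, erythropoietin, a classical HIF target. Epo stood at -7.33, -8.56 and -6.15 in knockout cells at oxygen 1, against -7.66, -8.40 and -8.09 in starved knockout cells. In wild type Epo stood at -4.48, -5.03 and -4.02 at oxygen 1, all well above background, whereas 1 of 3 knockout samples at oxygen 1 was. The knockout difference was 0.70 ± 0.48 (95% interval -0.32 to 1.72), the wild-type difference 3.90, and the interaction -3.20 ± 0.68 (unadjusted p = 0.000292, adjusted p = 0.999916), so it failed the correction. Col4a2, a collagen chain, differed by 0.54 in knockout and by 1.74 in wild type (interaction -1.21, unadjusted p = 0.00043) and failed it as well.

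**Figure D5:**
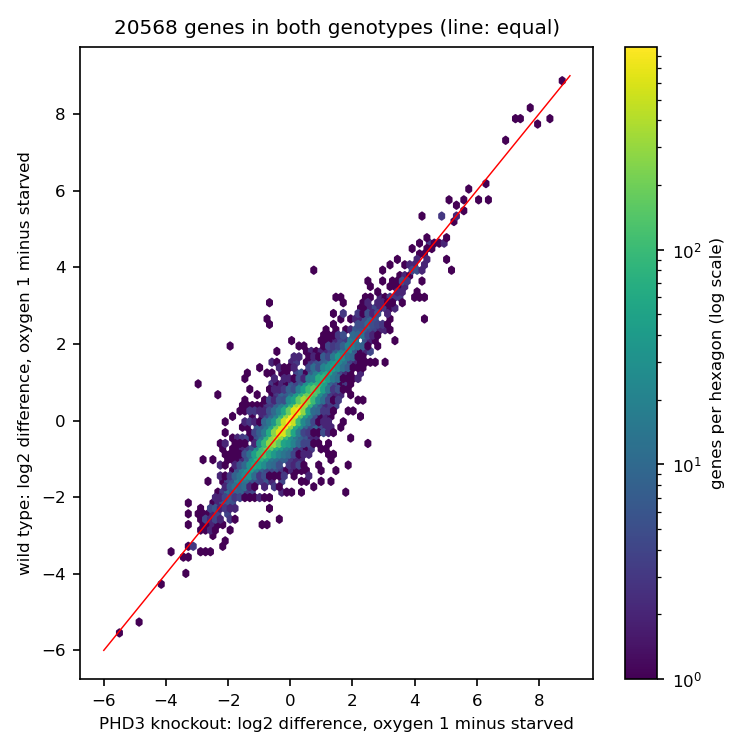
Log2 difference, oxygen 1 minus starved, of 20568 genes in PHD3 knockout (x axis) and wild-type samples (y axis), with colour for the number of genes per hexagon on a log scale and the line marking equal differences. Most genes lie along the line (r = 0.925 across genes), and the hexagon near 0.70 on x and 3.90 on y holds Epo.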

How the data were processed

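RNA of 18 samples was measured on 20 one-colour Agilent arrays on 5 slides, with 200 ng of RNA per array; per the labels the label field reads biotin and the protocol names Cy3. The deposited files hold spot intensity values from Agilent Feature Extraction 10.7.3.1, per the file headers. The deposited series value table holds log2 values with no method stated for their normalization; it served as an alternative.

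Each array's processed intensity was taken as log2 minus its 75th percentile, flagged outlier spots were left out (0.117% of values missing), and both arrays of a sample were averaged. A probe was tested if well above background in 3 or more samples, with 2 or more values in every group, and the brightest probe stood for a gene. Of 39429 probes 26055 (66.1%) carried a symbol. Means of 6 groups over 18 samples were estimated in R 4.3.3 by limma 3.58.1 (lmFit, eBayes), with Benjamini-Hochberg adjustment over 20568 genes and a threshold of 0.05; the fit was tested on simulated data. P-values set a difference against the spread between samples within groups, pooled over all 6 groups with wild type included. That spread may be technical in part.

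Named genes were the 12 largest differences in each direction among called genes whose groups do not overlap, whose probe is well above background in all samples of 1 or both groups and whose symbol is no predicted, clone or Rik name; the called members with the 4 smallest adjusted p per direction of each list; the HIF pathway genes; Egln3; and the 8 smallest p of the interaction. The members and the gene lists were chosen with earlier results of these data known. Same-numbered samples of both groups deviated together (correlations 0.174, 0.192 and 0.183), so a fit with the replicate number as a block was run. The mean spot signal planned for normexp correction was not available, so this correction ran on median spot signals. The alternatives changed background, scaling, filter, probe choice, samples, slide, replicate block and array.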

Additional observations from a re-analysis of the deposited data

How the results depend on the processing

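With normexp background correction 4188 genes were called in knockout cells (2174 higher and 2014 lower) and 4373 in wild type (1926 higher and 2447 lower), against 7725 and 7949; 4169 of the 4188 were among the 7725. The other alternatives gave 6961 to 7974 knockout calls, and leaving out 1 replicate gave 6080 to 7062, the lowest without oxygen 1 replicate 2. With quantile normalization 47.5% of calls were higher, against 51.6%. The replicate block gave 7792 calls, 7305 of them shared, and among the 283 named genes it lost only Calr (adjusted p = 0.081) and Ndufa1 (adjusted p = 0.0583). Within slides 1 and 3, which hold both groups, 99.2% and 98.6% of called genes with a value kept their sign, while 146 of 279 and 154 of 283 named differences moved by more than the spread between replicates. Slc11a2 reversed to -0.12 when a probe had to be above background in all 18 samples, which is the value of its other probe. Lum reversed to 0.14 within slide 1 and Naip2 to 0.090 within slide 3; the cause was not tested. The interaction gave 0 calls under every alternative run. For genes at background in 1 group, dim signal limits the size of the difference.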
